A study of Mus musculus with 8 samples.

Results

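The Rnf and March genes encode proteins with a RING finger, a zinc-binding fold found in the largest class of ubiquitin ligases. They were taken from the deposited table by gene symbol, as every symbol that starts with Rnf or March followed by a number, other than Rnf8, Rnf17 and Rnf212. The pattern matched 95 symbols, and without these exceptions 92 of the 19906 genes remained, 81 named Rnf and 11 named March. The rule uses no measured value, although the genes were proposed with earlier results of these data known. As a check of the name, the domain annotation in the same table gave 91 of the 92 a zinc finger of the RING, FYVE or PHD type, and Rnf212b carried a RING annotation under another entry.

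Ubiquitin is a small protein that is joined to other proteins through a relay of enzymes. An E1 enzyme activates it, an E2 enzyme carries it, and an E3 ligase brings the E2 to a chosen substrate, which is then degraded, moved or altered in its activity according to the kind of ubiquitin chain. Most RING ligases let ubiquitin pass from the E2 directly to the substrate, while the RBR ligases (named for RING, in-between-RING, RING) first take it onto a cysteine of their own. In the testis the relay removes histones and cytoplasm as round spermatids elongate into sperm, and several RING ligases are made almost wholly in these germ cells.

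RNA was sequenced from whole testes of 2-month-old mice, 4 labelled Tmem232-/- and 4 labelled Tmem232+/+, with 1 library per mouse. The Tmem232-/- line carries a germline CRISPR-Cas9 deletion of several exons of Tmem232, made in C57BL/6 embryos, which shifts the reading frame, and the Tmem232+/+ mice are its wild-type controls with no other allele or treatment named. Total counts lay between 15428421 and 16350871 per library. The tissue was a mixture of cells, so that fewer cells of a type and less RNA per cell cannot be told apart, and p-values describe the spread between these mice.

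Tmem232 was examined first. Its level, as counts per 1000000 counts after TMM scaling (CPM), was 148, 132, 123 and 122 in replicates 1 to 4 carrying the Tmem232-/- label, against 111, 106, 108 and 109.9 with the Tmem232+/+ label, a log2 fold change of 0.27 (standard error 0.0721, edgeR quasi-likelihood test, Benjamini-Hochberg adjusted p = 0.0335). The count covers the whole gene, including exons outside the deletion, and it went against the label, so every library is named here by its label. Germ cell, Sertoli, Leydig and peritubular markers were present in every library. Epididymal markers summed to 31.7 and 10.9 CPM in replicates 1 and 3 labelled Tmem232+/+ and to 6.3 CPM in replicate 1 labelled Tmem232-/-. In the other libraries they reached at most 1.0 CPM. Summed over 10 genes, the markers of elongating spermatids reached 1335 to 2207 CPM in libraries labelled Tmem232-/- and 340.0 to 687 CPM in the others, and all 10 were called higher (median log2 fold change 1.64). The 8 round spermatid markers summed to 1387 to 1568 CPM against 1153 to 1401 CPM (5 called higher, 1 lower), with 7 of the 8 above 0 and a median log2 fold change of 1.06, and the 8 spermatogonial markers to 189 to 209 CPM against 231 to 258 CPM (3 called lower). The 5 peritubular myoid markers summed to 197 to 236 CPM against 250.2 to 296 CPM (2 called lower, median log2 fold change -0.35). The 6 Leydig cell markers summed to 398 to 566 CPM against 252 to 433 CPM, with 0 called and 5 higher at an unadjusted p under 0.05 in edgeR (median 0.47). The 8 spermatocyte markers summed to 1746 to 2287 CPM against 2064 to 2245 CPM (1 called lower, median -0.11). The 8 Sertoli cell markers summed to 1445 to 1848 CPM against 1704 to 1807 CPM (0 called, median -0.14).

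The results turn on Rnf133, Rnf148 and Rnf151, and their promoters are shown because these are the ligase genes that differed by 2-fold or more. Each sequence runs from 250 bases before to 50 bases after the start of transcription, 5′ to 3′ on the minus strand, from RefSeq on GRCm38.p6. Capitals mark the letters ATGTCA on the printed strand together with neighbouring letters of the run that is described next. The window of Rnf148 also holds ATGTCA on the other strand, left in lower case, which begins 220 bases before the start. The windows are chr6:23650256-23650555 for Rnf133, chr6:23655087-23655386 for Rnf148 and chr17:24718008-24718307 for Rnf151.
Rnf133: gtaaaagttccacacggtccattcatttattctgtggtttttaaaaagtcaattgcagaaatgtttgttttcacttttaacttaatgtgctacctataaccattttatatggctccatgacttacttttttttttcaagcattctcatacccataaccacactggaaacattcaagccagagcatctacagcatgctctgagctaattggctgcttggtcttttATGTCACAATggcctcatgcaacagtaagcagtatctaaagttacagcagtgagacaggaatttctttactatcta
Rnf148: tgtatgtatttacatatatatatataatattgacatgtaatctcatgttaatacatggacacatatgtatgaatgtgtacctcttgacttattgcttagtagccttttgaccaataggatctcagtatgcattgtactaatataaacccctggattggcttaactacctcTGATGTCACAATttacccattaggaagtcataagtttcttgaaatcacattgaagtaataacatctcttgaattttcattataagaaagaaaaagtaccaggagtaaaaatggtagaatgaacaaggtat
Rnf151: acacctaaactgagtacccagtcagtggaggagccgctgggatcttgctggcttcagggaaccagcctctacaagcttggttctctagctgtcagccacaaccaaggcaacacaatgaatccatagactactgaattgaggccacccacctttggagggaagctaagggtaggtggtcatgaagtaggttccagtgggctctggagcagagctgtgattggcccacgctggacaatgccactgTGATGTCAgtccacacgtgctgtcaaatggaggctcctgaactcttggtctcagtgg

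The capitals begin 26 bases before the start in Rnf133, 80 bases before it in Rnf148 and 7 bases before it in Rnf151. The run ATGTCACAAT was found, with both strands searched, in the windows of Rnf133 and Rnf148 and in 0.158% of all 32851 promoters of the same length. TGATGTCA was in the windows of Rnf148 and Rnf151 and in 3.62% of all promoters, and the shorter ATGTCA, which lies within both longer runs, was in all 3 windows and in 14.1% of all promoters. The palindrome TGACGTCA, the textbook cAMP response element bound by CREM in spermatids, was in none of these windows and in 1.79% of all promoters. TGANGTCA, which takes in both 8-letter runs, was in 8.83% of all promoters. Promoters were found for 64 of the 92 ligase genes. Among their 82 promoters, 7.32% held ATGTCA (in Rnf146, Rnf157 and Rnf220 as well), 4.88% held TGATGTCA, 6.1% held TGANGTCA and 1.22% held TGACGTCA, in Rnf7. The letters were chosen after the sequences had been seen, and a match is a description of the letters alone.

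Of the 92 ligase genes, 86 passed the filter on low counts and were tested among 15787 genes. At an adjusted p under 0.05, 9 of the 86 were higher in libraries labelled Tmem232-/- (10.5%, against 10.3% of all tested genes called higher). None was called lower, against 1.46% of all tested genes, while at an unadjusted p under 0.05 the same edgeR test gave 13 higher (against 14.6% of all tested genes) and 10 lower (against 10.5%). DESeq2 and limma-voom also called 0 lower, and limma on log2 FPKM called 1, Rnf167. Of the 86 tested ligases, 3 were called higher by 2-fold or more (against 5.23% of all tested genes), namely Rnf133, Rnf148 and Rnf151. Put against called genes alone, these were 3 of the 9 higher ligases, beside 826 of the 1633 genes called higher in all. The median log2 fold change of the 86 was -0.067, beside -0.054 over all tested genes, and 31 lay above 0 and 55 below. Members of the family together took 0.834% to 0.841% of the counts in libraries labelled Tmem232-/- and 0.804% to 0.828% in the others.

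All 4 libraries of one label lay above all 4 of the other for 11 ligase genes with Tmem232-/- above (against 11.8% of all tested genes) and for 5 with Tmem232-/- below (against 6.88%). The 11 were the 9 called genes, Rnf146 and March10. The 5 were Rnf103, Rnf114, Rnf115, Rnf167 and Rnf187, with log2 fold changes between -0.13 and -0.19, and none of them passed the adjusted threshold. The 6 genes that were not tested, Rnf39, Rnf207, Rnf224, Rnf186, Rnf113a1 and March1, had at most 15 counts in any library, and Rnf186 had a single count in 1 library.

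**Figure D1:**
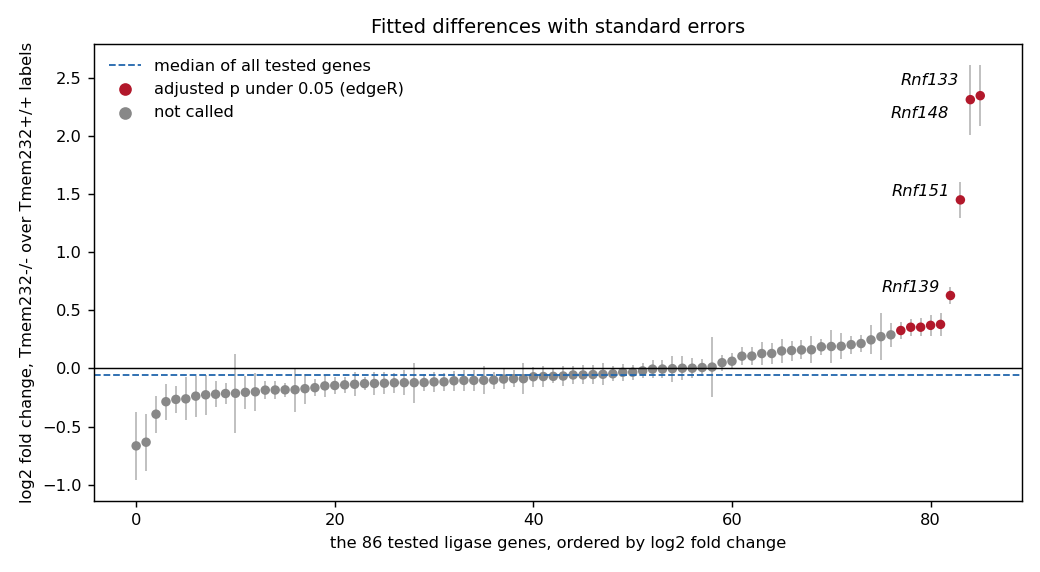
Log2 fold change of each of the 86 tested ligase genes (libraries labelled Tmem232-/- over Tmem232+/+, n = 4 each) with its standard error, in rising order, with the median of all tested genes as a dashed line. Most genes lie within a narrow band around 0, and Rnf133, Rnf148 and Rnf151 stand between 1.45 and 2.35.

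The ligases of testis and spermatids, a list of 12 genes, held the 3 changes of 2-fold or more. Of the 12, 3 rose (against 10.3% of all tested genes), 0 fell (against 1.46%) and 9 did not pass the test, and the median log2 fold change over the list was 0.16, with Rnf212b alone below 0. March11 was at 0.00 and turned negative in 7 of the 17 alternatives, namely library size alone, both fits on FPKM and the fits without replicate 1 or 4 labelled Tmem232-/- or without replicate 2 or 4 labelled Tmem232+/+. At an unadjusted p under 0.05 in edgeR, 4 of the 12 were higher and 0 lower (against 14.6% and 10.5% of all tested genes). DESeq2 and limma-voom called 0 of the 12 lower.

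Rnf133 encodes a ligase of the endoplasmic reticulum that is made in spermatids and is needed for full male fertility in mice. Replicates 1 to 4 with the Tmem232-/- label had 28.6, 26.2, 17.8 and 27.1 CPM, against 4.36, 2.54, 7.79 and 4.91 CPM with the Tmem232+/+ label. The groups were far apart, and the lowest Tmem232-/- library, replicate 3, stood above the highest of the others, which was also a replicate 3. The means were 24.9 ± 4.86 (SD, n = 4) and 4.90 ± 2.18 CPM (SD, n = 4). Rnf133 rose with a log2 fold change of 2.35 (standard error 0.264, edgeR quasi-likelihood test, adjusted p = 0.000115), and the exact two-sided permutation test over all 70 arrangements of the libraries gave p = 0.029, the smallest it can give with n = 4 in each group.

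Rnf148 encodes a close relative of Rnf133 and is likewise made in the testis. Replicates 1 to 4 had 14.6, 13.4, 12.3 and 15.9 CPM with the Tmem232-/- label and 2.74, 0.969, 4.69 and 2.95 CPM with the Tmem232+/+ label, where counts ran from 16 to 74 per library. All Tmem232-/- libraries were again above all others, and replicate 2 was the lowest of the Tmem232+/+ group for both genes. Group means were 14.1 ± 1.57 CPM and 2.84 ± 1.52 CPM (SD, n = 4 each). Rnf148 rose by 2.31 on the log2 scale (standard error 0.300, edgeR quasi-likelihood test, adjusted p = 0.000287).

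Both genes lie on the minus strand of chromosome 6, in 1 intron of Cadps2, a gene for a protein of dense-core vesicle release. In the GENCODE annotation of GRCm38, Rnf133 spans 23648869 to 23650305 and Rnf148 spans 23653898 to 23655136, with 3592 bases between them, and the intron between exons 2 and 3 of Cadps2 runs from 23626826 to 23688846 on the same strand. Rnf148 has a single exon, and so has 1 of the 2 annotated transcripts of Rnf133. Cadps2 itself had 2.40, 2.64, 2.59 and 3.32 CPM in libraries labelled Tmem232-/- and 3.93, 3.69, 3.04 and 3.87 CPM in the others, with a log2 fold change of -0.41 that did not pass the test (edgeR, adjusted p = 0.144). The difference of the host gene thus had the opposite sign to those of the 2 genes in its intron, and reads from unspliced Cadps2 RNA were not separated from theirs. The transcripts of Rnf133 and Rnf148 share 70.9% of 787 aligned bases, with a longest identical run of 17 bases.

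Rnf151 encodes a ligase that was described in the forming acrosome of spermatids, the cap that later opens at fertilization. In the same annotation it lies on chromosome 17 from 24715839 to 24718063 in 4 exons on the minus strand. Libraries labelled Tmem232-/- had 103, 93.5, 78.5 and 98.6 CPM and those labelled Tmem232+/+ had 33.6, 23.8, 44.3 and 35.2 CPM. The groups did not overlap, and replicate 3 was once more the lowest with the first label and the highest with the second. Group means were 93.4 ± 10.7 CPM and 34.2 ± 8.39 CPM (SD, n = 4 each). Rnf151 rose by 1.45 on the log2 scale (standard error 0.157, edgeR quasi-likelihood test, adjusted p = 9.2e-05).

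Within each group, Rnf133 and Rnf151 ordered the libraries in the same way as the summed elongating spermatid markers, with replicate 3 lowest, then 2, 4 and 1 under the Tmem232-/- label and replicate 2 lowest, then 1, 4 and 3 under the Tmem232+/+ label. Rnf148 had this order among the Tmem232+/+ libraries, and among the Tmem232-/- libraries replicates 1 and 4 were exchanged. The summed round spermatid markers had the same order as the elongating ones under the Tmem232-/- label, and under the Tmem232+/+ label the same lowest and highest library. Of the called ligases described below, Rnf138 had the order of the elongating markers and Rnf41 that of the round ones under the Tmem232+/+ label. Under the Tmem232-/- label their orders differed from those of both marker lists. Rnf139, Rnf24 and Rnf168 had neither order under either label. The part of these markers in the differences of the ligases was not tested.

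**Figure D2:**
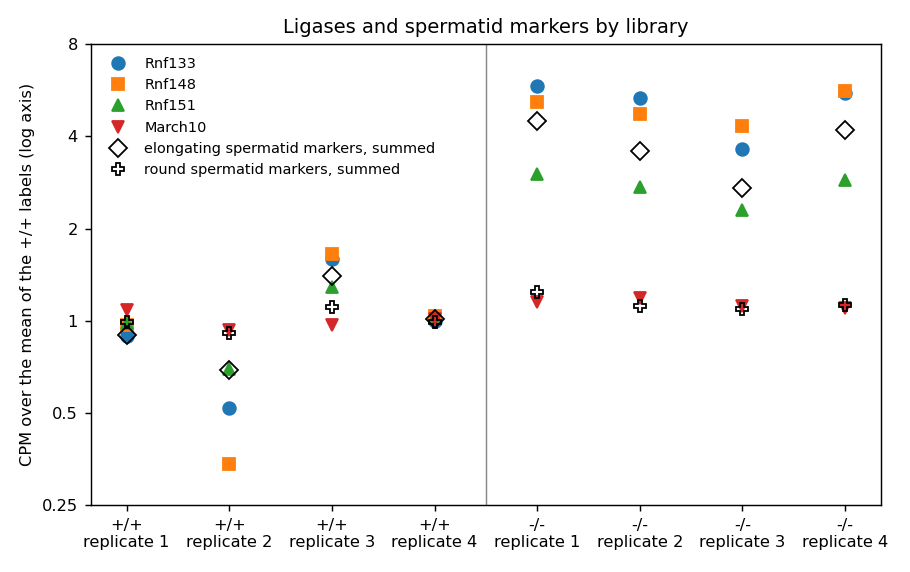
CPM of Rnf133, Rnf148, Rnf151 and March10 and the summed CPM of the spermatid marker lists in each of the 8 libraries, divided by the mean of the 4 libraries labelled Tmem232+/+, on a log axis. Rnf133, Rnf148, Rnf151 and the elongating spermatid markers are above 2 in every library labelled Tmem232-/-, while March10 and the sum of the round spermatid markers lie nearer to 1, although 5 of the 8 round spermatid genes were called higher.

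The other 9 ligases of the testis list were not called. March10, a ligase linked to the microtubules of elongating spermatids, had 727, 749.7, 707 and 698 CPM in the libraries labelled Tmem232-/- and 687, 591, 615 and 639.7 CPM in the others. Every Tmem232-/- library was above every other one, yet the gap of 0.19 on the log2 scale (standard error 0.0670, edgeR, adjusted p = 0.108) was small beside those of Rnf133, Rnf148 and Rnf151. DESeq2 called March10 higher (adjusted p = 0.0121), as did edgeR without replicate 1 labelled Tmem232+/+, with 0.27 on the log2 scale (adjusted p = 0.0347), and over all alternatives the adjusted p ran from 0.0121 to 0.280.

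Rnf32, a RING protein made during spermatogenesis, had 605, 539.7, 569 and 532 CPM with the Tmem232-/- label and 559, 494, 566 and 532 CPM with the other. These ranges overlapped, and the log2 fold change was 0.06 (standard error 0.0709, edgeR, adjusted p = 0.622). March11, a ligase linked to protein sorting, averaged 342 ± 17.0 CPM (SD, n = 4) with the Tmem232-/- label and 342 ± 40.6 CPM (SD, n = 4) with the other. The difference was 0.00 on the log2 scale (standard error 0.0876). Rnf138rt1, a retrotransposed copy of Rnf138, had 10.9 to 13.1 CPM against 8.90 to 13.2 CPM, and the log2 fold change was 0.19 (edgeR, adjusted p = 0.429). With each library left out Rnf138rt1 ran from 0.12 to 0.36, the latter without replicate 3 labelled Tmem232+/+ (edgeR, adjusted p = 0.0585). Its transcript shares 70.6% of 715 aligned bases with Rnf138, with a longest identical run of 21 bases. Rnf19a (Dorfin), Rnf216, needed for male fertility in mice, Rnf141 and March7 (axotrophin) had log2 fold changes of 0.15, 0.15, 0.16 and 0.16, with overlapping groups. With each library left out they ran from 0.10 to 0.26, 0.12 to 0.23, 0.12 to 0.22 and 0.10 to 0.25, and none was called. On log2 FPKM, Rnf141 was at 0.40 with a pseudocount of 1 and 0.42 with 0.1 (limma, adjusted p = 0.0654 and 0.0667), also not called. Rnf212b, which acts on crossovers of meiotic chromosomes, had 6.51 to 7.05 CPM against 6.96 to 8.10 CPM, and a log2 fold change of -0.12 (edgeR, adjusted p = 0.504).

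In the membrane ligases of the endoplasmic reticulum and other organelles, 1 of 12 tested genes rose (against 10.3% of all tested genes), 0 fell (against 1.46%) and 11 did not pass, and the median log2 fold change was -0.085. In edgeR at an unadjusted p under 0.05, 1 was higher (against 14.6% of all tested genes) and 2 were lower (against 10.5%). Rnf139 (TRC8), which marks sterol synthesis enzymes and other membrane proteins for degradation at the endoplasmic reticulum, had 349, 328, 316 and 283 CPM with the Tmem232-/- label (replicates 1 to 4) and 209, 194, 209 and 215 CPM with the Tmem232+/+ label. The highest Tmem232+/+ library was well under the lowest of the others. The means were 319 ± 27.4 (SD, n = 4) and 207 ± 8.94 CPM (SD, n = 4), and Rnf139 rose by 0.63 on the log2 scale (standard error 0.0754, edgeR quasi-likelihood test, adjusted p = 0.000171). Its library order differed from that of the spermatid markers, with replicate 4 lowest under the Tmem232-/- label. Counts of Rnf139 were not whole in all 8 libraries, and the gene overlaps Tatdn1, whose log2 fold change was -0.13 (edgeR, adjusted p = 0.587).

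The other genes of this list went both ways without a call. Rnf183, a ligase of stressed membranes, was at -0.67 on the log2 scale (standard error 0.294, edgeR, adjusted p = 0.187), and at -0.41 without replicate 3 labelled Tmem232+/+ and -0.26 in limma on log2 of FPKM plus 1. It had 10 to 18 counts per library with the Tmem232-/- label and 16 to 30 with the other, so that counting error is large. March5 (MITOL), which acts on the mitochondrial outer membrane, had 67.5 to 79.9 CPM against 73.5 to 84.4 CPM and a log2 fold change of -0.10 (edgeR, adjusted p = 0.430).

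In the ligases of the nucleus and chromatin, 2 of 8 rose (against 10.3% of all tested genes), 0 fell (against 1.46%) and 6 did not pass, and the median log2 fold change was 0.00. At an unadjusted p under 0.05 edgeR also gave 2 higher and 0 lower (against 14.6% and 10.5% of all tested genes). Rnf138, which promotes the trimming of broken DNA ends, had 212, 182, 176 and 181 CPM against 139.8, 138, 161 and 149 CPM. The groups did not overlap, although replicate 1 labelled Tmem232-/- stood apart at the top. Rnf138 rose by 0.35 on the log2 scale (standard error 0.0801, edgeR quasi-likelihood test, adjusted p = 0.0123), and with the replicate number as a block the same 0.35 was not called (edgeR, adjusted p = 0.0648). Rnf168, which adds ubiquitin to histone H2A around DNA breaks, had 60.4, 51.6, 48.6 and 43.3 CPM against 36.5, 39.2, 42.2 and 38.8 CPM. The lowest and highest libraries of the groups nearly met, at 43.3 and 42.2 CPM. The log2 fold change was 0.38 (standard error 0.0989, edgeR quasi-likelihood test, adjusted p = 0.0279). That call was lost in 8 of 17 alternatives. With the replicate number as a block Rnf168 was at 0.37 (edgeR, adjusted p = 0.091). Without replicate 1 or 2 labelled Tmem232-/- edgeR gave 0.29 and 0.37 on the log2 scale (adjusted p = 0.0689 and 0.0751). Without replicate 1, 2 or 4 labelled Tmem232+/+ it gave 0.38, 0.38 and 0.37 (adjusted p = 0.0539, 0.0649 and 0.0802). Limma on log2 FPKM gave 0.31 with a pseudocount of 1 and 0.33 with 0.1 (adjusted p = 0.0617 and 0.0586). Rnf40, which with Rnf20 adds ubiquitin to histone H2B, was at -0.07 (edgeR, adjusted p = 0.515).

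The called genes Rnf41 and Rnf24 stood in no list and were named after their values had been seen. Rnf41 (Nrdp1), which limits the amount of ErbB receptors, had 46.5, 47.1, 44.8 and 44.8 CPM against 36.3, 32.3, 39.3 and 35.4 CPM, with a narrow spread in the first group. Rnf41 rose by 0.35 (standard error 0.0730, edgeR quasi-likelihood test, adjusted p = 0.00692). Its adjusted p was 0.0486 with the replicate number as a block and 0.0301 without replicate 4 labelled Tmem232+/+, both in edgeR. Rnf24, a small membrane ligase of the Golgi, had 36.7, 35.8, 30.4 and 33.7 CPM against 26.7, 28.6, 23.7 and 26.6 CPM, again without overlap. Rnf24 rose by 0.37 (standard error 0.0873, edgeR quasi-likelihood test, adjusted p = 0.0158), and the call was lost without replicate 1 (0.33, adjusted p = 0.0542) or 2 (0.35, adjusted p = 0.0554) labelled Tmem232-/- in edgeR and by limma on log2 FPKM (0.29, adjusted p = 0.0531 with a pseudocount of 1, and 0.33, adjusted p = 0.0502 with 0.1). Counts of Rnf24 were not whole in any library, and it overlaps Pank2, with a log2 fold change of -0.02.

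**Figure D3:**
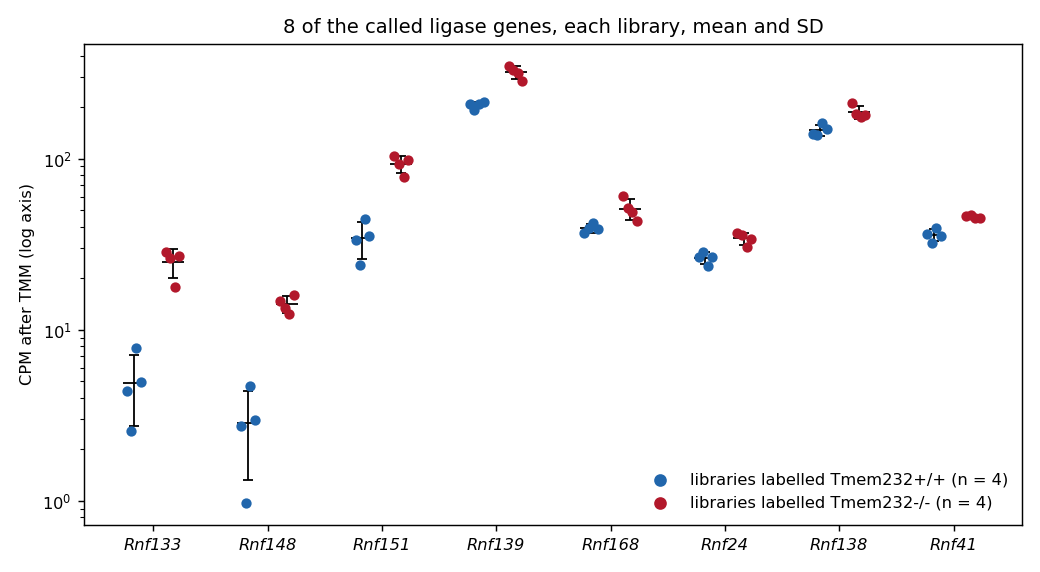
CPM on a log axis of 8 of the 9 ligase genes called higher, with 1 point per library and the mean and SD of the 4 libraries of each label. The groups do not overlap for any of the 8, the gap is widest for Rnf133 and Rnf148, and for Rnf168 it is 43.3 against 42.2 CPM.

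The PA-TM-RING ligases have a protease-associated domain on the lumenal side of a membrane and a RING on the other, and the list includes Rnf133 and Rnf148. The domain annotation gave a protease-associated domain to 8 ligase genes, Rnf133 and Rnf148 included, fewer than the 9 listed. Rnf133 and Rnf148 were the 2 of the 9 listed genes that rose (against 10.3% of all tested genes), 0 fell (against 1.46%) and 7 did not pass. The other 7 all lay below 0, and the median log2 fold change was -0.13. In edgeR at an unadjusted p under 0.05, 2 were higher (against 14.6% of all tested genes) and 1 was lower (against 10.5%), Rnf167. Rnf167, a ligase of endosomes and lysosomes, had 85.0, 78.5, 78.7 and 76.3 CPM with the Tmem232-/- label and 89.2, 89.3, 95.2 and 88.1 CPM with the other. Every Tmem232-/- library was below every other one, with a log2 fold change of -0.18 (standard error 0.0618, edgeR, adjusted p = 0.0854). It was called lower when libraries were scaled by library size alone (-0.22, adjusted p = 0.0374 in edgeR) and by limma on log2 FPKM. Rnf13, a ligase of endosomes and the endoplasmic reticulum, was at -0.12 (edgeR, adjusted p = 0.352).

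None of the 8 RBR ligases was called by edgeR, DESeq2 or limma-voom, and 0 had an unadjusted p under 0.05 in edgeR in either direction, where all tested genes gave 10.3% higher and 1.46% lower calls and 14.6% and 10.5% at the unadjusted p. Their log2 fold changes ran from -0.22 to 0.19 with a median of 0.03. The domain annotation gave the in-between-RING domain to the same 8 genes. Rnf19b, at the upper end, had 314, 361, 350.2 and 296 CPM against 338, 294, 228 and 298 CPM, and the groups overlapped (edgeR, adjusted p = 0.328). With each library left out Rnf19b ran from 0.12 to 0.32 on the log2 scale and was not called. Its relative Rnf19a shares 70.3% of 1404 aligned bases with it and showed the same pattern, with replicate 3 the lowest of the Tmem232+/+ libraries for both. Rnf31 (HOIP), which builds linear ubiquitin chains in immune signalling, was at the lower end with 10.2 to 13.2 CPM against 12.7 to 15.9 CPM (edgeR, adjusted p = 0.247).

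Of the 10 ligases of signalling pathways, edgeR called 0 (against 10.3% higher and 1.46% lower of all tested genes), with 3 higher and 0 lower at an unadjusted p under 0.05 (against 14.6% and 10.5% of all tested genes). These were Rnf25, Rnf146 and Rnf220. Rnf25, a partner of NF-κB, had 53.9 to 69.0 CPM against 45.9 to 58.5 CPM, a log2 fold change of 0.29 (edgeR, adjusted p = 0.110). Rnf220, which stabilizes β-catenin, had 129 to 151 CPM against 112 to 133 CPM, a log2 fold change of 0.20 (edgeR, adjusted p = 0.120). Without replicate 3 labelled Tmem232+/+, the highest of its group for both, Rnf25 was called higher at 0.41 (edgeR, adjusted p = 0.0104) and Rnf220 at 0.28 (edgeR, adjusted p = 0.0204). Rnf146, which marks Axin for degradation in Wnt signalling, had 58.6 to 68.3 CPM against 52.4 to 57.4 CPM without overlap (log2 fold change 0.21, edgeR, adjusted p = 0.0774), and it was called higher by DESeq2 and by edgeR with the size factors of DESeq2, without a filter on low counts and without replicate 4 labelled Tmem232-/-. Its counts were not whole in any library.

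The March genes encode ligases with a variant RING, the RING-CH domain, and most of them are membrane proteins. EdgeR called 0 of the 10 that were tested (against 10.3% higher and 1.46% lower of all tested genes), with 1 higher and 2 lower at an unadjusted p under 0.05 (against 14.6% and 10.5% of all tested genes), while DESeq2 called March10. The median log2 fold change was -0.05. The lowest values in these libraries were those of March3 (-0.27, edgeR, adjusted p = 0.187) and March9 (-0.26, edgeR, adjusted p = 0.409), ligases of endosomal membranes, with overlapping groups. March9 was at -0.08 without replicate 3 labelled Tmem232+/+. In the table, 16 of the 92 genes had a RING-CH domain, all 11 March genes and Rnf24, Rnf139, Rnf145, Rnf165 and Rnf167, and 2 of the 15 tested among them, Rnf24 and Rnf139, were called higher (13.3%, against 10.3% of all tested genes).

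**Figure D4:**
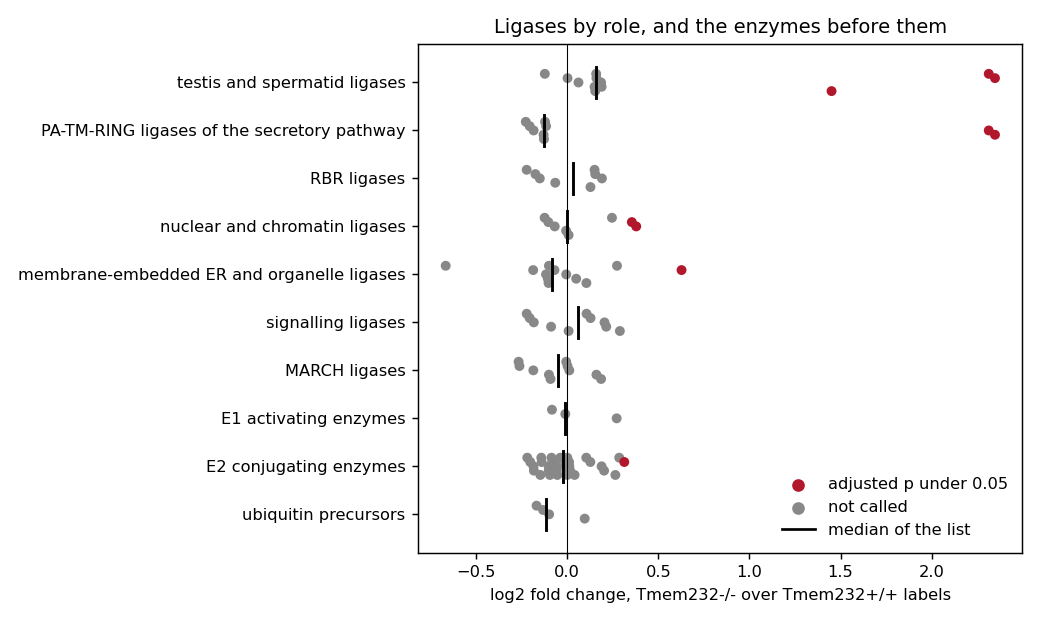
Log2 fold change (libraries labelled Tmem232-/- over Tmem232+/+, n = 4 each) of each tested ligase by role list and of the E1, E2 and ubiquitin genes, with the median of each list as a bar. A gene that stands in several lists appears in each, and Rnf133 and Rnf148 are the points above 2 in the first and the second list.

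The enzymes ahead of the ligases in the relay were counted in the same way. Of 35 tested E1 and E2 genes, 1 rose (against 10.3% of all tested genes) and 0 fell (against 1.46%) in edgeR. The median log2 fold change was -0.01, and 6 were higher and 3 lower at an unadjusted p under 0.05 (against 14.6% and 10.5% of all tested genes). DESeq2 called 3 higher and 0 lower, for which the share over all tested genes was not counted. Ube2j1, the E2 anchored in the endoplasmic reticulum, had 215, 183, 174 and 187 CPM against 149, 140.2, 171 and 150.0 CPM. The groups did not overlap but came close, at 174 and 171 CPM, and Ube2j1 rose by 0.31 (standard error 0.0855, edgeR quasi-likelihood test, adjusted p = 0.0355). The number of E1 and E2 genes called higher was 0 without replicate 2 labelled Tmem232-/- or without replicate 1, 2 or 4 labelled Tmem232+/+, was 2 without replicate 4 labelled Tmem232-/-, and was 4 without replicate 3 labelled Tmem232+/+. The 4 genes that encode ubiquitin itself had log2 fold changes between -0.17 and 0.10.

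Levels were compared between genes in FPKM, which are per kilobase of transcript. In libraries labelled Tmem232+/+, 11 of the 92 ligases were at 100 FPKM or more, 41 between 10 and 100, 27 between 1 and 10 and 13 below 1, with a median of 13.3 FPKM. With the Tmem232-/- label these numbers were 12, 43, 22 and 15, with a median of 16.0 FPKM. Rnf32 led with 363 ± 19.8 FPKM (SD, n = 4) in the Tmem232+/+ libraries, followed by March10 with 322 ± 15.6 FPKM (SD, n = 4). Rnf126, a ligase of mislocalized membrane proteins, had 252 ± 28.4 FPKM (SD, n = 4), which did not differ from March11 with 249.7 ± 29.4 FPKM (SD, n = 4) beyond the spread. Rnf10, which acts on ribosomes, came next with 186 ± 7.0 FPKM (SD, n = 4). Under the Tmem232-/- label the same 5 led, and March11 (244 FPKM) came before Rnf126 (234.5 FPKM). Rnf126 and Rnf10 had log2 fold changes of -0.07 (edgeR, adjusted p = 0.638) and -0.05 (edgeR, adjusted p = 0.717). Rnf151 moved in this order from place 26 with 34.0 ± 8.39 FPKM (SD, n = 4) to place 13 with 90.8 ± 10.3 FPKM (SD, n = 4). Rnf133 was at 4.37 ± 1.97 and 21.7 ± 4.22 FPKM (SD, n = 4 each), still far below the leading ligases.

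**Figure D5:**
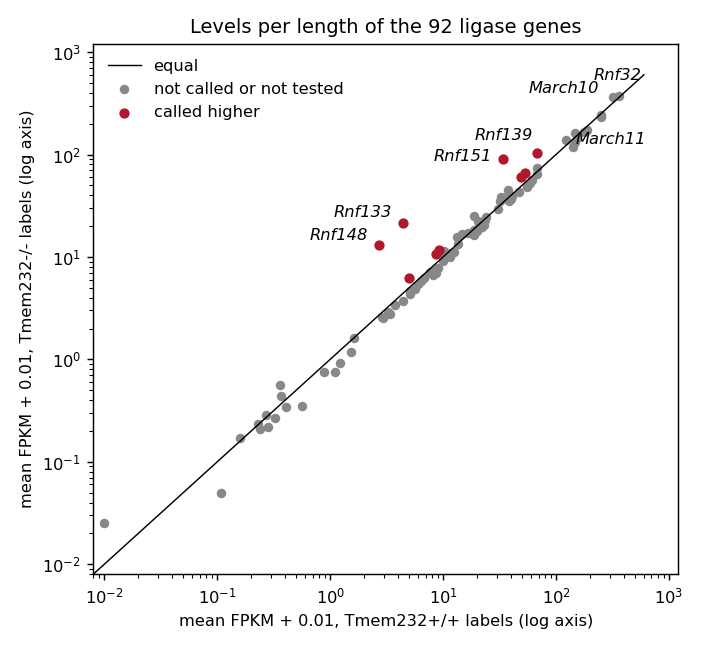
Mean FPKM plus 0.01 of each of the 92 ligase genes in the 4 libraries labelled Tmem232+/+ (horizontal) and the 4 labelled Tmem232-/- (vertical), on log axes, with the line of equal levels. Genes called higher are in red, and Rnf133, Rnf148, Rnf151 and Rnf139 lie visibly above the line.

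Single libraries stood at the ends of their group for many ligases. Among the 69 ligases with a mean of at least 10 CPM, replicate 3 labelled Tmem232+/+ was the lowest of its 4 libraries for 34 and the highest for 22, while replicate 1 labelled Tmem232-/- was the highest for 27 and replicate 4 of that label the lowest for 26. Over all 17 alternatives, leaving out each library included, Rnf133 stayed between 2.13 and 2.69 on the log2 scale, Rnf148 between 2.02 and 2.69, Rnf151 between 1.31 and 1.63 and Rnf139 between 0.58 and 0.69. The adjusted p of these 4 genes was at most 0.00299 in each alternative.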

How the data were processed

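RNA of 8 testes was sequenced in 1 library each, and all 8 libraries were used, grouped by their labels. Per the submitters' processing notes and the methods, reads were mapped to GRCm38.p6 with HISAT and Bowtie2, quantified with StringTie and featureCounts and compared with DESeq2, and versions are not given in the sources used here. The library kit was TruSeq RNA, and the use of strand in counting is not stated there. The authors deposited estimated counts without normalization, of which 10.71% to 11.2% per library are not whole, so counts were rounded. The authors also deposited FPKM, scaled by library and transcript length. The log2 fold change, p-value and q-value columns deposited by the authors hold their own comparison and were not used.

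Counts were analysed in R 4.3.3 with edgeR 4.0.16 (default filter on low counts, TMM scaling, quasi-likelihood test without covariates), and p-values were adjusted by the Benjamini-Hochberg method over all 15787 tested genes. A gene was called at an adjusted p under 0.05. Precision is limited by depth, and standard errors cover the spread between mice. For single genes an exact two-sided permutation test of CPM was added. Named were ligases called at 1.5-fold or more, all of the testis list, the 5 with the highest FPKM, and 2 to 4 of each other list. The members and lists were chosen with earlier results of these data known, and lists were not tested as sets. Alternatives were DESeq2 1.42.0, its size factors, library size alone, no filter, at least 10 counts in every library, limma-voom (limma 3.58.1), limma on log2 of FPKM plus 1 or 0.1, a replicate block, and leaving out each library. Gene models were from GENCODE on GRCm38 and promoters from RefSeq on GRCm38.p6. Of the 9 called ligases, 1 is included in the counts but is not reported here by itself. Steps were tested on simulated data. Letters were searched on both strands of the promoters.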

Additional observations from a re-analysis of the deposited data

Results flagged for a closer look

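In 3 of 60 groups of 4 libraries, 1 library stood apart from the other 3 by Dixon's criterion, where chance gives about 1 in 20 groups, or 3 here. Rnf25 had 58.5 CPM in replicate 3 labelled Tmem232+/+, while the other 3 had 45.9 to 47.6 CPM. Rnf138 had 212 CPM in replicate 1 labelled Tmem232-/- and 176 to 182 CPM in the others of that label. Rnf13 had 43.8 CPM in replicate 1 labelled Tmem232+/+ and 49.8 to 50.7 CPM in the others.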

How the results depend on the processing

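The calls of Rnf133, Rnf148, Rnf151, Rnf139 and Rnf41 held in all 17 alternatives, and the number of ligases called higher lay between 7 and 11. The call of Rnf41 came close to the threshold with the replicate block (edgeR, adjusted p = 0.0486). Ligases called lower numbered 1 (Rnf167) instead of 0 with library size alone and with limma on FPKM at either pseudocount. The median log2 fold change of the ligases was -0.018 without a filter on low counts and lay between -0.071 and -0.014 with each library left out, the latter without replicate 1 labelled Tmem232+/+. It was -0.099 with library size alone. On FPKM it was -0.091 with a pseudocount of 1 and -0.102 with 0.1, beside -0.069 and -0.086 over all genes. Over all genes the median was -0.054 with TMM, -0.029 with DESeq2's size factors and -0.087 with library size alone. This median of all genes was 0.0000 without a filter on low counts and -0.0067 without replicate 1 labelled Tmem232+/+, so it moved along with that of the ligases. E1 and E2 genes called higher numbered 3 with DESeq2 and without a filter, 0 with library size alone, on FPKM and with the replicate block, and 0 to 4 with each library left out. Those called lower numbered 1 on FPKM. The share of all tested genes called was not counted for the alternatives. Whether ligases or E1 and E2 genes moved apart from other genes between them therefore cannot be told. The sign of March11 turned with library size alone (-0.031) and on FPKM (-0.030 at both pseudocounts), and it ran from -0.065 to 0.11 with each library left out. Rnf10 turned to 0.037 without replicate 1 and Rnf126 to 0.032 without replicate 3 labelled Tmem232+/+, from ranges that began at -0.081 and -0.13. The cause of these shifts was not tested. Deviations of samples with the same replicate number correlated between -0.332 and 0.072, and those with different numbers between -0.316 and 0.393. Samples of the same number were thus no more alike than others. Whether the numbers pair the mice in some way cannot be told from these values. With the replicate block, 7 ligases were called higher, without Rnf138 (adjusted p = 0.0648) and Rnf168 (adjusted p = 0.091 from edgeR). Rnf168 was also lost on FPKM and without 5 libraries in turn, and Rnf24 on FPKM and without 2. Ligases with few counts, such as Rnf183, are limited by depth.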
